A study of Mus musculus with 8 samples.

Results

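Mast cell genes were followed in the intestine of newborn mice with and without claudin-7. The set holds 9 genes, Mcpt1, Mcpt2, Mcpt4, Cma1, Tpsb2, Cpa3, Hdc, Fcer1a and Gata2, of 20138 genes tested. Its members were taken by gene name from the probes on the array, and 10 of 55681 non-control probes carry these names (2 for Tpsb2). The 9 names were chosen with earlier results of these data known, so shares of members set against all genes are a description. All 9 genes, and all 10 probes, were well above background on each of the 8 arrays, so every member passed the filter on dim probes.

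The series compared claudin-7 knockout pups, described as made by gene targeting, with wild-type pups of the same strain, 129SV, at 3 days of age. Claudin-7 is a membrane protein of epithelial cell contacts. Total RNA came from 2 cm fragments of the whole intestinal wall, from the small or the large intestine, and was read on 1-colour Agilent arrays. The 4 groups are the 2 genotypes in each of the 2 segments, with no treatment named, and each holds 2 arrays, numbered 2 and 3. The labels name no tissue-specific Cre or promoter, and they do not say which samples came from the same animal or litter, so p-values measure only the spread between these samples. The number of arrays limits the precision, and the median standard error of a log2 change within a segment was 0.28.

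Mast cells are granule-bearing cells of the blood lineage that settle in tissues and mature there under stem cell factor, the ligand of the receptor Kit. In mice, mast cells of the mucosa store the chymases Mcpt1 and Mcpt2. Those of the submucosa and other connective tissue store Mcpt4, Cma1 (also called Mcpt5) and tryptases such as Tpsb2 (also called Mcpt6). Carboxypeptidase A3, the product of Cpa3, is shared by both types. Hdc makes histamine, Fcer1a encodes the chain of the receptor that binds IgE, and the transcription factor Gata2 is needed for mast cell development. Several of these genes are not private to mast cells: basophils share Fcer1a, Gata2 and Hdc, and activated myeloid cells and stomach endocrine cells can also express Hdc.

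The chymases are close relatives, so the probes of the members were compared with each other. They were not compared with the RNA of any relative, so which RNAs a probe reads was not tested. Even the pair of Tpsb2 probes shared a run of only 7 bases. The 60-base probes of different members shared no run of more than 10 bases, and the longest was that of Mcpt1 (chr14:56638928-56638987, plus strand, mouse build mm9) and Mcpt2 (chr14:56663261-56663320, plus strand). Below are the last 30 bases of the Mcpt1 probe and the first 30 bases of the Mcpt2 probe, with the shared run in capitals.
Mcpt1: agtcataaatggcAAGTAGCTGAgaagtct
Mcpt2: AAGTAGCTGAaaagcctaaccagcctgagt
The Cma1 probe has 60 bases but spans 1060 bases of the genome (chr14:56561491-56562550, minus strand, mm9), and so it crosses an intron and matches spliced RNA. It is shown because Cma1 was a member with a large difference between segments.
Cma1: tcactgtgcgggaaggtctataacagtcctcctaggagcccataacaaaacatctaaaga
Tpsb2 is read by a pair of probes that gave different sizes of change. The dimmer probe (chr17:25504493-25504552, mm9) is shown here, and the brighter probe (chr17:25504819-25504878), which stands for the gene below, lies next to it.
Tpsb2: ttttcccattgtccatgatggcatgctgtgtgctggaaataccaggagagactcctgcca
The remaining probes lie at chr14:56678589-56678648 (Mcpt4), chr3:20115674-20115733 (Cpa3), chr2:126419516-126419575 (Hdc), chr1:175151438-175151497 (Fcer1a) and chr6:88156362-88156421 (Gata2), all in mm9. Exon and UTR annotation of mm9 was not used here.

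Promoters of 7 members matched RefSeq by symbol (build GRCm38.p6, windows of 300 bases around the start), and Mcpt2 and Tpsb2 are named only. GATA-type words (the words AGATAA and AGATAG plus TGATAA and TGATAG, on either strand) were found in 6 of the 7 members, all but Gata2 itself, against 29.6% of 32544 promoters of the same length. TATAAA was found in 4 members against 13.6% of promoters. The E-box words CACGTG and CATGTG were in 1 member (Fcer1a) against 20.5%, and TTCNNNGAA was in 0 of 7 against 8.33%. No GATA-type word in a member overlapped a TATAAA word. For 4 members whose small intestine knockout changes differed in sign, without reaching the threshold given below, the 150 bases before the start are shown. The GATA-type word is in capitals.
Mcpt1 (chr14:56017814-56017963, plus strand): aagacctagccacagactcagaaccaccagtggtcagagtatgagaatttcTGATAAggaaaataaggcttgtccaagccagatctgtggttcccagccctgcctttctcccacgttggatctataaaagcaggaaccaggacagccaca
Mcpt4 (chr14:56062311-56062460, minus strand): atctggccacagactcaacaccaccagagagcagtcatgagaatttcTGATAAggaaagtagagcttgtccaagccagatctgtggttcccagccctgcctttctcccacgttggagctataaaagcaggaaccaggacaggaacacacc
Cma1 (chr14:55944676-55944825, minus strand): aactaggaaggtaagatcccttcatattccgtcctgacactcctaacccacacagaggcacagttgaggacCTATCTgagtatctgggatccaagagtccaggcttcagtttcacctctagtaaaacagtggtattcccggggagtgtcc
Cpa3 (chr3:20242182-20242331, minus strand): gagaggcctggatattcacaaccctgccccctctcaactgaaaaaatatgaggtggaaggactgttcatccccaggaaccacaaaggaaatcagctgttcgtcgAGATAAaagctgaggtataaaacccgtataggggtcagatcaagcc
The Mcpt1 and Mcpt4 promoters shared an unbroken run of 53 bases, and in both of them the GATA-type word began 71 bases upstream of the TATAAA word. These matches are letters in a window, and binding was not measured.

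Levels are given as scaled signal, the processed signal divided by the 75th percentile of the same array (2642.5 to 3571.77 signal units), so that a signal equal to that percentile is 1. Changes are differences of log2 scaled signal, given ± standard error, and "passed" refers to limma with p-values adjusted over all 20138 genes and a threshold of 0.05. The targeted gene fell: Cldn7 fell by 4.34 ± 0.39 in the knockout small intestine (adjusted p = 0.00804) and fell by 3.52 ± 0.39 in the large intestine (adjusted p = 0.0342), although the labels do not say if the deletion covers the site of its probe. Some arrays stood apart in genes of other kinds. Both knockout arrays numbered 3 had a high log2 scaled signal of Xist, the RNA of the inactive X chromosome (-2.42 and -2.43), while the remaining 6 lay at -7.46 to -6.25. The Y-linked gene Ddx3y read -8.47 and -9.00 on the same pair and 0.70 to 1.33 on the remaining 6. By these genes both knockout samples numbered 3 were from females and the other 6 samples from males, so sex differed between the knockout replicates and, in part, between the genotypes. Alb, serum albumin, read 5.23 on knockout large intestine 2 and -8.38 to -4.53 elsewhere. The pancreatic amylase gene Amy2a5 was bright on 2 large intestine arrays, wild-type 2 (2.30) and knockout 3 (2.05), and at -9.21 to -3.86 on the rest. All 8 arrays shared 1 slide and 1 scan day, and since a slide column holds a single group, an effect of the column cannot be told apart from that of the group.

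In the knockout small intestine the mast cell genes did not move as a block. Hdc (7.11-fold) and Gata2 (1.93-fold) rose, and both mucosal chymases, Mcpt1 and Mcpt2, lay below wild type on both knockout arrays without passing. Cma1, Cpa3 and Fcer1a lay above wild type on both knockout arrays, also without passing. Over both segments 0 of 9 members passed in limma (0.651% of all genes), with Hdc and Mcpt1 at an unadjusted p under 0.05 (2 members, 15.2% of all genes). Within the small intestine 2 of the 9 passed, both higher, where 9.89% of all genes passed and 6.38% were called higher. The median log2 change was 0.95, against -0.10 over all genes tested, and 6 members were above 0 (42.8% of all genes). The groups did not overlap for 5 members that were higher (26.6% of all genes) and 2 that were lower (32.7% of all genes), and 7 members had an unadjusted p under 0.05 (31.4% of all genes). In bulk tissue, fewer cells of a type and less RNA per cell cannot be told apart.

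In the large intestine 0 of 9 members passed in limma, where 0.308% of all genes passed, and 1 member, Hdc, had an unadjusted p under 0.05 (13.3% of all genes). The median was -0.18 (all genes -0.00). Hdc was the member whose knockout arrays were both above wild type (27.6% of all genes), and Mcpt1 and Tpsb2 were those whose knockout arrays were both below (27.7% of all genes). The difference of the knockout effect between the segments passed in limma for 0 of 9 members (0.139% of all genes), with 2 at an unadjusted p under 0.05 (25.8% of all genes), Gata2 and Cpa3.

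**Figure D1:**
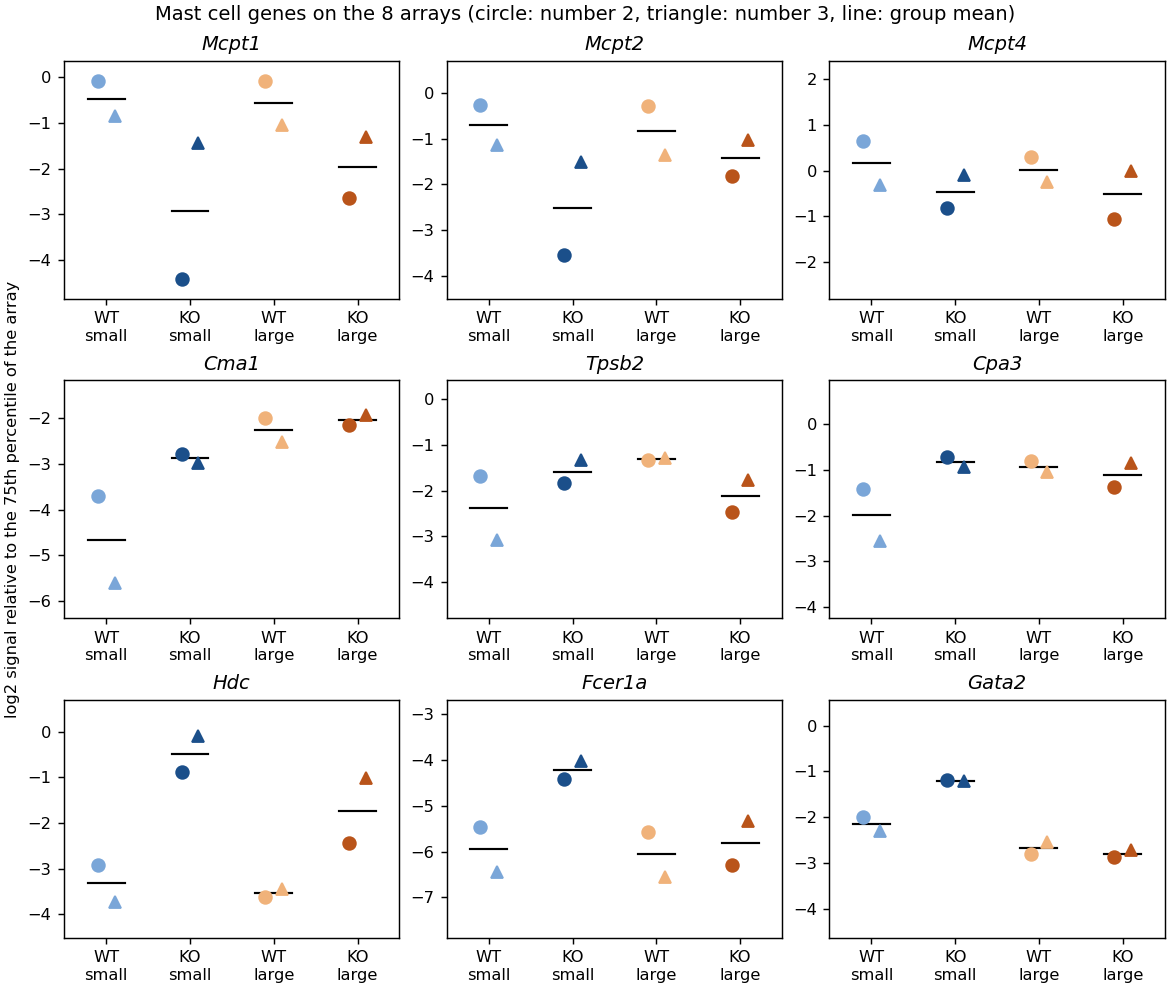
Log2 signal relative to the 75th percentile of the array (vertical axes, each spanning the same width) for the 9 mast cell genes in the 4 groups; circles are arrays numbered 2, triangles those numbered 3, and lines the group means. Hdc lies higher on all 4 knockout arrays than on any wild-type array, and Mcpt1 lies lower on all 4.

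The mucosal chymases come first. Mcpt1, a chymase of mucosal mast cell granules, had a scaled signal of 0.937 and 0.558 in wild-type small intestine and 0.0471 and 0.369 in knockout small intestine. Wild-type large intestine read 0.946 and 0.487, and knockout large intestine 0.160 and 0.406. Every knockout array was below every wild-type array, and knockout small intestine 2 was the lowest of the 8, 7.84-fold under its replicate. The log2 change was -2.45 ± 0.96 in the small intestine (adjusted p = 0.139) and -1.41 ± 0.96 in the large intestine (adjusted p = 0.551). Over both segments it was -1.93 ± 0.68 (n = 4 arrays per genotype, adjusted p = 0.239). Without knockout small intestine 2 the small intestine change was -0.97, and with the knockout arrays numbered 3, those with high Xist, left out of both segments it was -3.94 (adjusted p = 0.103).

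Mcpt2, the neighbouring mucosal chymase, read 0.840 and 0.454 in wild-type and 0.0853 and 0.354 in knockout small intestine. Its large intestine values were 0.820 and 0.389 in wild type and 0.286 and 0.492 in the knockout. The groups were apart in the small intestine and overlapped in the large intestine, and the lowest array was again knockout small intestine 2. The log2 change was -1.83 ± 0.73 (adjusted p = 0.144) and -0.59 ± 0.73 (adjusted p = 0.735), and without that array the small intestine change was -0.80. The 2 mucosal chymases were also compared within each array. Their difference, log2 Mcpt1 minus log2 Mcpt2 with the wild-type mean set to 0, stayed between -0.09 and 0.08 on the 4 wild-type arrays. It was -1.10 and -0.19 in knockout small intestine and -1.08 and -0.53 in knockout large intestine, so Mcpt1 was the lower of the pair relative to wild type on all 4 knockout arrays (a description, with no test).

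Mcpt4, the chymase assigned to connective tissue mast cells, read 1.55 and 0.808 in wild-type and 0.563 and 0.933 in knockout small intestine. In the large intestine it read 1.23 and 0.832 in wild type and 0.484 and 1 in the knockout. The groups overlapped in both segments. Its log2 change was -0.63 ± 0.49 (adjusted p = 0.425) and -0.54 ± 0.49 (adjusted p = 0.646). On the knockout arrays numbered 2 all of Mcpt1, Mcpt2 and Mcpt4 were lower than on those numbered 3, and on the wild-type arrays the numbers ran the other way for the same 3 genes in both segments.

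Cma1, a chymase of connective tissue mast cells, had the opposite direction in the small intestine. It read 0.0769 and 0.0204 in wild-type small intestine, 0.145 and 0.128 in knockout small intestine, 0.251 and 0.174 in wild-type large intestine and 0.226 and 0.260 in knockout large intestine. Both wild-type small intestine arrays were below the other 6, and they differed by 3.77-fold from each other, against 1.14 to 1.44-fold within the remaining groups. The knockout change was 1.78 ± 0.57 in the small intestine (adjusted p = 0.0868) and 0.21 ± 0.57 in the large intestine (adjusted p = 0.888). Without wild-type small intestine 3 the small intestine change was 0.83, and without wild-type small intestine 2 it was 2.74 and passed (adjusted p = 0.0211).

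Tpsb2, a tryptase of connective tissue mast cells, read 0.311 and 0.117 in wild-type and 0.280 and 0.397 in knockout small intestine with its brighter probe. Wild-type large intestine read 0.399 and 0.408, and knockout large intestine 0.181 and 0.295. The groups overlapped in the small intestine, and the knockout lay below in the large intestine. The changes were 0.80 ± 0.48 (adjusted p = 0.303) and -0.80 ± 0.48 (adjusted p = 0.509). The other probe, whose letters are given above, read 0.121 and 0.0505 against 0.234 and 0.297 in the small intestine, so that there the groups were apart. In the fit with every probe as a feature its change was 1.75 ± 0.44 (adjusted p = 0.0647) in the small and -0.08 in the large intestine (adjusted p = 0.950). Both probes were thus above 0 in the small intestine, with different sizes. In the large intestine the dimmer probe had no clear sign (-0.08 ± 0.44). Over both segments the dimmer probe had a change of 0.84 ± 0.45 and the brighter probe -0.00 ± 0.44.

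Cpa3, a carboxypeptidase of mast cell granules that is shared by mucosal and connective tissue types, read 0.373 and 0.170 in wild-type small intestine. The other groups were closer together, at 0.603 and 0.524 in knockout small intestine, 0.574 and 0.482 in wild-type large intestine and 0.387 and 0.554 in knockout large intestine. Both wild-type small intestine arrays were the lowest of the 8. The change was 1.16 ± 0.39 in the small intestine (adjusted p = 0.0968) and -0.18 ± 0.39 in the large intestine (adjusted p = 0.854). Leaving out wild-type small intestine 3 made the small intestine change 0.59, and leaving out wild-type small intestine 2 made it 1.73 and it passed (adjusted p = 0.0344).

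The wild-type small intestine arrays differed from each other beyond these genes. The median of the smooth muscle list (16 genes), each gene centred on its mean over the 8 arrays, was -0.38 and -1.49 on wild-type small intestine 2 and 3, 0.27 and 0.82 on knockout small intestine, 0.38 and 0.34 on wild-type large intestine and 0.27 and -0.38 on knockout large intestine. The array with the lowest smooth muscle median was also the lowest for Cma1, Tpsb2, Cpa3 and Hdc. In the knockout small intestine all 16 smooth muscle genes were above 0 (42.8% of all genes), with a median of 1.5. Of these 2 rose (6.38% of all genes), the cell adhesion gene Pgm5 by 1.94 ± 0.37 and the actin-binding Tagln by 1.09 ± 0.26. The summed scaled signal of the list was 199.8 to 375.7 in wild-type and 583.4 to 737.0 in knockout small intestine, and 632.0 to 686.6 and 562.1 to 639.1 in the large intestine. The part of smooth muscle content in the values of Cma1, Tpsb2, Cpa3 and Hdc was not tested.

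**Figure D2:**
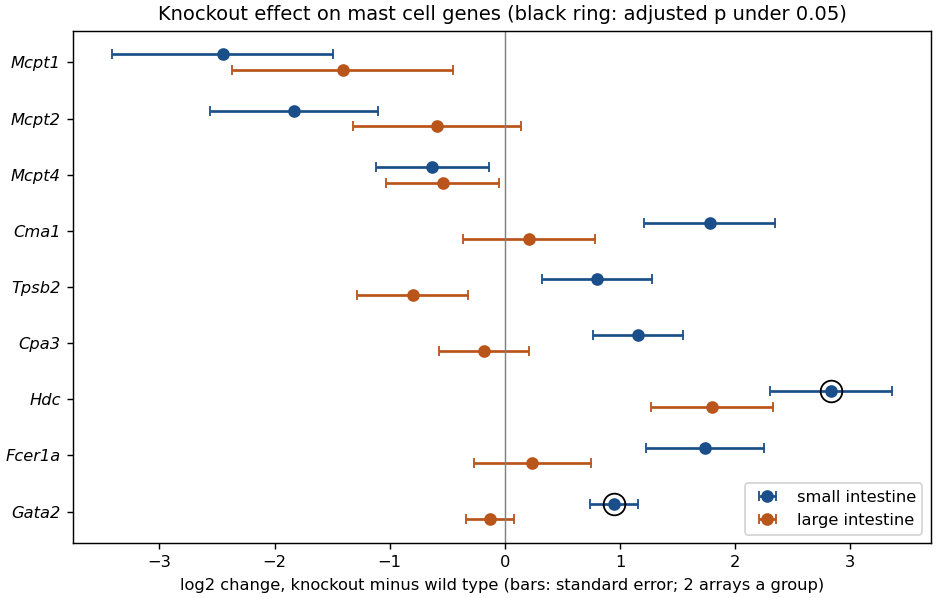
Log2 change, knockout minus wild type, of each mast cell gene in the small (blue) and large (orange) intestine; points are fitted changes, bars their standard errors (2 arrays a group), and black rings mark an adjusted p under 0.05. Hdc at 2.83 and Gata2 at 0.95 in the small intestine carry rings, and Mcpt1, Mcpt2 and Mcpt4 lie below 0 in both segments.

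Since Cpa3 marks mast cells of both kinds, the other members were also read relative to it within each array, with the mean of the 4 wild-type arrays set to 0. This removes a shift common to both genes of an array, and the values are a description with no test. Log2 Mcpt1 minus log2 Cpa3 was 0.38 and 0.77 in wild-type and -4.62 and -1.45 in knockout small intestine. In the large intestine it was -0.22 and -0.93 in wild type and -2.22 and -1.40 in the knockout. The knockout arrays were below the wild-type arrays in both segments. Mcpt2 minus Cpa3 was 0.47 and 0.72 against -3.52 and -1.26 in the small intestine, and -0.18 and -1.01 against -1.14 and -0.87 in the large intestine, where the groups overlapped. Mcpt4 minus Cpa3 was 0.51 and 0.70 against -1.65 and -0.71 in the small intestine, and -0.45 and -0.76 against -1.23 and -0.70 in the large intestine, where the groups overlapped. Cma1 minus Cpa3 was -0.28 and -1.06 in wild-type small intestine, -0.05 and -0.03 in knockout small intestine, 0.81 and 0.53 in wild-type large intestine and 1.22 and 0.91 in knockout large intestine, so this difference separated the segments. Relative to Cpa3, Mcpt1, Mcpt2 and Mcpt4 were all lower in the knockout small intestine than in wild type, and an array ratio shows unequal change only. Cpa3 was no fixed reference, with a change of 1.16 ± 0.39 of its own in the small intestine. Its pattern over the arrays was nearer to that of Cma1 (r = 0.881) than to that of Mcpt1 (r = -0.275).

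**Figure D3:**
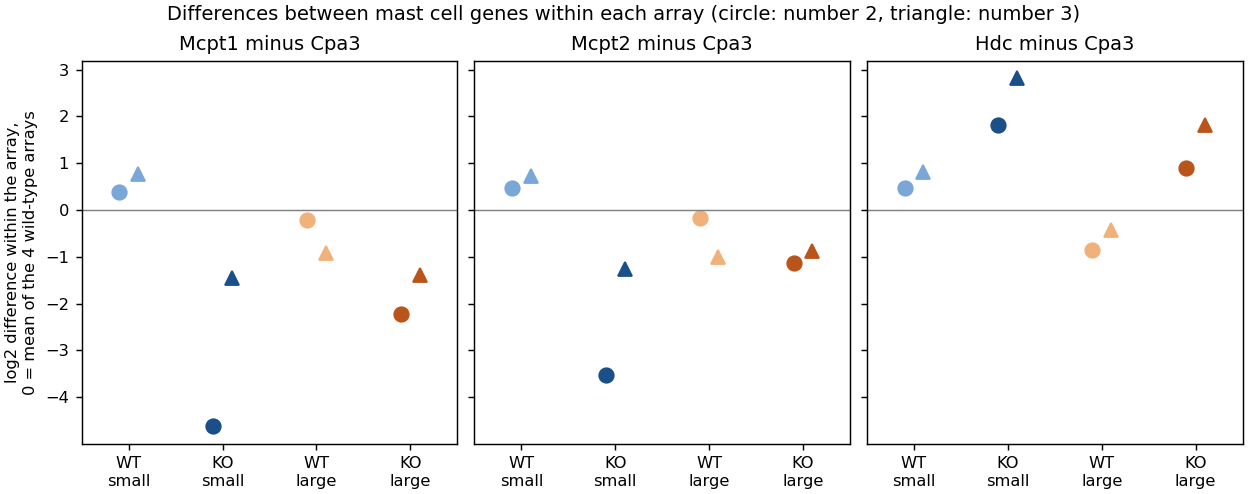
Difference of log2 signal within each array, for Mcpt1, Mcpt2 and Hdc minus Cpa3, with the mean of the 4 wild-type arrays set to 0; circles are arrays numbered 2 and triangles those numbered 3. Mcpt1 minus Cpa3 lies at -4.62 to -1.40 on the knockout arrays, and Hdc minus Cpa3 at 0.89 to 2.81.

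Hdc, histidine decarboxylase, was the member with the largest rise in the knockout. It read 0.132 and 0.0761 in wild-type small intestine, 0.539 and 0.939 in knockout small intestine, 0.0814 and 0.0916 in wild-type large intestine and 0.184 and 0.495 in knockout large intestine. All 4 knockout arrays were above all 4 wild-type arrays, with knockout small intestine above knockout large intestine. In the small intestine Hdc rose by 2.83 ± 0.53 (7.11-fold, adjusted p = 0.0348), and in the large intestine the change was 1.80 ± 0.53 (3.49-fold, adjusted p = 0.254). Over both segments the change was 2.32 ± 0.40 (adjusted p = 0.0596), and the effects of the segments differed by -1.02 ± 0.74 (large minus small, adjusted p = 0.417). Without wild-type or knockout small intestine 3 the small intestine change was 2.43 and did not pass (adjusted p = 0.15), and it passed in 15 of 22 settings, with an adjusted p of 0.0222 to 0.15. Without either wild-type large intestine array, which only lends its spread to the fit, the adjusted p was 0.0787.

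Relative to Cpa3, log2 Hdc was 0.47 and 0.81 in wild-type and 1.81 and 2.81 in knockout small intestine, and -0.85 and -0.43 against 0.89 and 1.81 in the large intestine. In both segments Hdc was thus higher relative to Cpa3 on both knockout arrays than on either wild-type array. The genes whose pattern over the 8 arrays was most like that of Hdc (Pearson r, a description over arrays that share genotype and segment) were Fpr2 (0.983), a formyl peptide receptor of neutrophils and macrophages, Lilrb4a (0.976), an inhibitory receptor of myeloid and mast cells, and the transcription factor gene Batf3 (0.973). Myzap (0.968) and Acod1 (0.967), which makes itaconate in activated macrophages, completed the 5. Among the members Fcer1a had r = 0.843 with Hdc, Gata2 0.628, Cpa3 0.522 and Mcpt1 -0.546.

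Markers of other cells that can hold Hdc moved on the same arrays. Of 18 neutrophil genes 3 rose in the knockout small intestine (6.38% of all genes), with a median of 0.71. Among them were Fpr2 by 2.79 ± 0.40 and Fpr1 by 2.86 ± 0.55, and the other, Mmp8, was not well above background in wild type. In the large intestine 1 of 18 rose (median 1.97, 0.308% of all genes called), Ly6g, a surface protein of mature neutrophils, by 3.67 ± 0.34. There 10 of 18 had an unadjusted p under 0.05 (13.3% of all genes). The list median, each gene centred on its mean over the 8 arrays, was -0.62 and -1.66 on wild-type large intestine 2 and 3. It was 0.77 and -0.25 on knockout large intestine 2 and 3, and knockout large intestine 2 was the array with high Alb. Summed scaled signal of the neutrophil list was 37.9 to 46.4 in wild-type and 45.6 to 50 in knockout small intestine, and 41.6 to 46.4 and 63.8 to 69.5 in the large intestine. Of 16 macrophage and dendritic cell genes 6 rose in the small intestine (6.38% of all genes), with a median of 0.97. They were led by the endotoxin receptor gene Cd14 by 2.27 ± 0.21, the lysozyme gene Lyz2 by 1.77 ± 0.28 and Adgre1 by 1.32 ± 0.23. The summed signal of this list was 93.9 to 110.1 and 98.6 to 139.2 in wild-type and knockout small intestine, and 35.1 to 35.7 and 43.9 to 45.1 in the large intestine. There 0 of 16 passed in limma and 4 had an unadjusted p under 0.05 (13.3% of all genes). None of these lists was at background, with 16 of 18 and 15 of 16 genes well above it on all 8 arrays. The part of myeloid cells in the Hdc value was not tested.

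Hdc is also a gene of histamine-making endocrine cells of the stomach. Of 15 genes in a list of enterochromaffin and stomach endocrine markers 4 fell in the small intestine and 0 rose (median -0.57). Of all genes 9.89% were called there in either direction. Above 0 were 6 of 15 (42.8% of all genes). Those that fell were the transcription factor genes Lmx1a (-2.10 ± 0.26) and Fev (-1.09), the granule gene Chga (-1.15 ± 0.18) and the serotonin synthesis gene Tph1 (-1.31 ± 0.20), which are genes of enterochromaffin or of endocrine cells in general. Large intestine calls were 0 of 15 in limma, where 2 had an unadjusted p under 0.05 (13.3% of all genes). Above 0 there were 9 of 15 (10044 of all 20138 genes), with a median of 0.14. Their summed scaled signal was 72.1 to 80.9 in wild-type and 36.4 to 52.1 in knockout small intestine, and 40.4 to 44.9 and 49.6 to 51.0 in the large intestine. Between the knockout segments 3 of 15 were called higher and 2 lower in the large intestine (15.9% of all genes called). The latter were Slc18a1 (-2.69, adjusted p = 0.0197) and the stomach gene Atp4a (-1.34, adjusted p = 0.0144). Of the same list Atp4b, Tff1, Gkn1, Muc5ac and Cckbr were tested and did not pass there. The list pools unlike cells, so its median does not stand for stomach cells. Their part in the Hdc value was not tested.

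Fcer1a read 0.0226 and 0.0115 in wild-type small intestine, 0.0470 and 0.0619 in knockout small intestine, 0.0212 and 0.0107 in wild-type large intestine and 0.0127 and 0.0251 in knockout large intestine. Both knockout small intestine arrays were above the other 6, which overlapped each other. The change was 1.74 ± 0.51 in the small intestine (3.34-fold, adjusted p = 0.0701) and 0.24 ± 0.51 in the large intestine (adjusted p = 0.85), where leaving out the arrays with high Xist turned it to -0.25. Ms4a2, the beta chain of the same receptor, was well above background on 0 of 8 arrays. Mcpt8, a protease of basophils, was well above background on 7 arrays and had a change of 2.18 ± 0.59 in the small intestine (adjusted p = 0.0614). Cd200r3, a receptor of basophils and mast cells, was not well above background on any of the 4 small intestine arrays, so that its small intestine values give no change. The part of basophils in the Fcer1a value was not tested.

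Gata2 was the member with the tightest replicates. It read 0.252 and 0.201 in wild-type small intestine, 0.438 and 0.433 in knockout small intestine, 0.143 and 0.172 in wild-type large intestine and 0.136 and 0.151 in knockout large intestine. Both knockout small intestine arrays were above the other 6, and the large intestine groups overlapped. Gata2 rose by 0.95 ± 0.21 in the small intestine (adjusted p = 0.042), and its change in the large intestine was -0.13 ± 0.21 (adjusted p = 0.797). The difference of these effects was -1.08 ± 0.29 and did not pass (adjusted p = 0.103). The small intestine call was lost when any of the 8 arrays was left out (0.79 to 1.12, adjusted p = 0.0518 to 0.199), smallest without wild-type small intestine 3, and it passed in 9 of 22 settings. With the array number, which is also the row on the slide, as a block the adjusted p was 0.0546. Gata2 is also a gene of endothelium. Of 16 endothelial genes 15 were above 0 in the small intestine (median 0.41, 42.8% of all genes above 0). In the large intestine 0 of 16 were above 0 (median -0.37, 10044 of all 20138 genes above 0). In either segment 0 passed in limma, and 4 and 2 had an unadjusted p under 0.05 (31.4% and 13.3% of all genes). Their summed signal was 46.3 to 56.8 and 69.8 to 89.4 in wild-type and knockout small intestine, and 41.7 to 51.5 and 34.9 to 35.9 in the large intestine. The part of endothelium in the Gata2 value was not tested.

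Between the segments of wild-type pups, Cma1 differed most. It was higher in the large intestine by 2.40 ± 0.57 (5.27-fold, adjusted p = 0.0319), and Cma1 was the 1 member of 9 that passed, where 19.8% of all genes passed and 9.93% were called higher. Leaving out wild-type small intestine 3 lowered the Cma1 difference to 1.44 (adjusted p = 0.0486), leaving out wild-type small intestine 2 raised it to 3.36, and without wild-type large intestine 2 or 3 it did not pass (adjusted p = 0.155 and 0.111). It was also lost without either knockout large intestine array (adjusted p = 0.0507) and with the knockout arrays of high Xist left out (adjusted p = 0.0732). Cpa3 differed by 1.06 ± 0.39 (adjusted p = 0.1) and Tpsb2 by 1.08 ± 0.48 (adjusted p = 0.158) with its brighter probe, and 1.81 with the dimmer probe in the fit of single probes (adjusted p = 0.0403). Mcpt1, Mcpt2 and Mcpt4 lay at -0.09, -0.13 and -0.15, with overlapping segments. The smooth muscle list, given above by array, had the same low wild-type small intestine arrays.

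Between the segments of knockout pups, Gata2 was lower in the large intestine by -1.61 ± 0.21 (3.04-fold, adjusted p = 0.00429), the 1 member that passed, where 15.9% of all genes passed and 7.58% were called lower. This call passed in 22 of 22 settings. The endothelial genes were lower in the same comparison, with 9 of 16 passing, all lower, and a median of -1.09 (all genes -0.03). At an unadjusted p under 0.05 were 16 of 16 (6930 of all 20138 genes). Between wild-type segments 0 of 16 passed in limma (19.8% of all genes), with a median of -0.18. There 1 had an unadjusted p under 0.05 (7298 of all 20138 genes). The part of endothelium in this Gata2 difference was not tested either. Hdc differed by -1.24 ± 0.53 (adjusted p = 0.149), Fcer1a by -1.60 ± 0.51 (adjusted p = 0.0763) and Cma1 by 0.83 ± 0.57 (adjusted p = 0.339). Order of the group means also differed by gene. For Hdc it was knockout small intestine (log2 scaled signal -0.49 ± 0.57, SD, n = 2), knockout large (-1.73 ± 1.01), wild-type small (-3.32 ± 0.56) and wild-type large intestine (-3.53 ± 0.12), and both wild-type groups overlapped. For Cma1 it ran from knockout large (-2.05 ± 0.14) and wild-type large (-2.26 ± 0.37), which overlapped, to knockout small (-2.88 ± 0.13) and wild-type small intestine (-4.66 ± 1.35). For Mcpt1 the wild-type groups (-0.47 ± 0.53 and -0.56 ± 0.68) overlapped each other, and so did the knockout groups (-2.92 ± 2.10 and -1.97 ± 0.95).

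Mcpt1, Mcpt2, Mcpt4 and Cma1 lie within 117 kb of chromosome 14, in the chymase and granzyme cluster. Along the cluster the small intestine changes had both signs. From Cma1 (1.78) the next named genes were the pseudogene Mcpt-ps1 (-0.16), Cma2 (-0.02) and Gm4015 (1.92, adjusted p = 0.0551). Then came Mcpt1 (-2.45), Mcpt2 (-1.83), Mcpt4 (-0.63), Mcpt8 (2.18), Ctsg, the neutrophil cathepsin G (0.37), Gzmc (0.96) and Gzmb (-1.10). Gm4015, a predicted gene, had group means of log2 scaled signal of -3.66, -1.74, -1.28 and -1.12 in the order wild-type small, knockout small, wild-type large and knockout large, the same order as the means of Cma1. Mcpt9, between Mcpt1 and Mcpt2, was well above background on 0 of 8 arrays. Gzmb, the granzyme of cytotoxic lymphocytes, passed in both segments, in opposite directions (-1.10 ± 0.23, adjusted p = 0.0394, and 1.85 ± 0.23, adjusted p = 0.0414), and its effects differed by 2.95 ± 0.32 (adjusted p = 0.045).

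**Figure D4:**
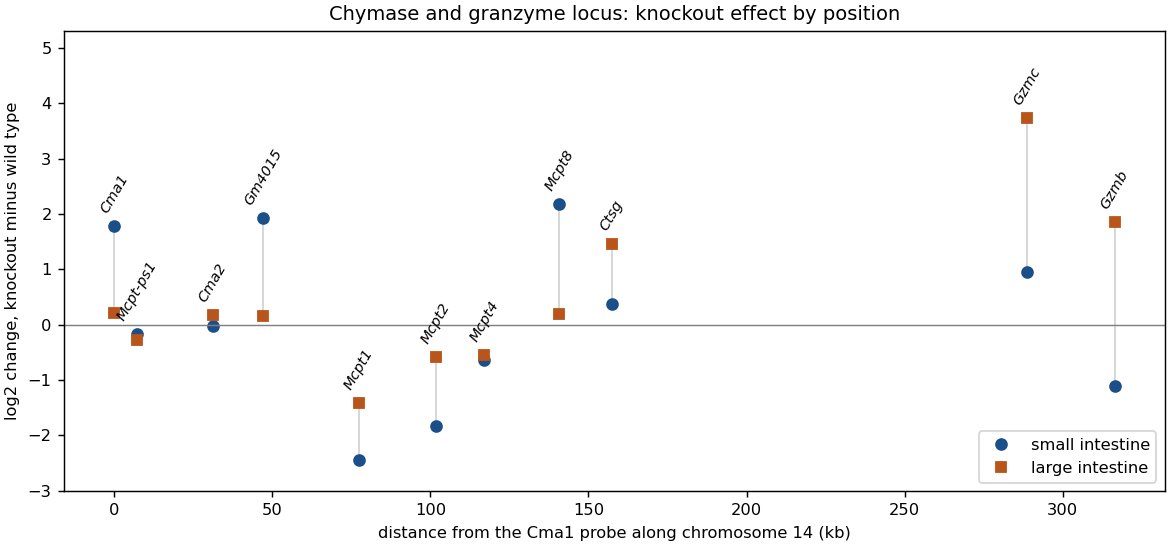
Log2 change, knockout minus wild type, of the tested genes of the chymase and granzyme cluster (vertical axis) by distance from the Cma1 probe in kb (horizontal axis); circles are the small and squares the large intestine. Mcpt1, Mcpt2 and Mcpt4 lie below 0 in both segments, and Cma1, Gm4015 and Mcpt8 lie at 1.78 to 2.18 in the small and 0.16 to 0.21 in the large intestine.

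Other genes of mast cell biology were counted in lists drawn up by function. Of 11 tested genes of the Kit and cytokine axis 3 rose in the small intestine (median 0.65, 6.38% of all genes called higher). Il1rl1, the receptor of interleukin-33 on mast cells and other cells, rose by 2.39 ± 0.34 (adjusted p = 0.0232), and its ligand gene Il33 by 1.2 ± 0.21 (adjusted p = 0.0319). Tslp, an epithelial cytokine, rose by 2.04 ± 0.32 (adjusted p = 0.0266). In the large intestine Il1rl1 had a change of 2.31 ± 0.34 (adjusted p = 0.0684), with both knockout arrays above both wild-type arrays, and over both segments it rose by 2.35 ± 0.23 (adjusted p = 0.0177). Kit itself had a change of 0.65 ± 0.34 in the small (adjusted p = 0.233) and -1.02 ± 0.34 in the large intestine (adjusted p = 0.292). Kit is also a marker of the pacemaker cells of the gut wall. The cytokine genes Il3, Il9 and Il13 were left out by the filter, being well above background on 1, 1 and 0 arrays.

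Of the 9 tested proteases beside the members, 1 fell in the small and 1 rose in the large intestine, Gzmb both times (medians 0.11 and 0.20). Of all genes 9.89% and 0.308% were called there in either direction. Tpsab1, the other mast cell tryptase, read 2.71 ± 0.66 higher in the small intestine (adjusted p = 0.0504), with 1 of 2 wild-type arrays well above background. Of 12 mast cell transcription factor genes 1 rose and 1 fell in the small intestine (median 0.03, 9.89% of all genes called). Mitf, which drives mast cell and pigment cell genes, rose by 1.17 ± 0.28 (adjusted p = 0.0479), and Cebpa, a myeloid factor, fell by 2.22 ± 0.31 (adjusted p = 0.0229). Gata1 was -2.41 on knockout large intestine 2 (log2 scaled signal) against -6.05 on its replicate, and Ctsg -0.97 against -4.48, on the same array where Alb stood apart.

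Among the 12 genes of granule and lipid mediators 1 rose and 1 fell in the small intestine (median 0.52, 9.89% of all genes called). Ptgs1, a cyclooxygenase of prostaglandin synthesis, rose by 1.70 ± 0.36, and Tph1 fell as above. For histamine handling 1 of 7 tested genes rose (median -0.61, 6.38% of all genes called higher). It was Hnmt, which methylates and inactivates histamine (1.86 ± 0.34, adjusted p = 0.0334). Aoc1, the diamine oxidase that degrades histamine outside cells, had a change of -1.55 in the small intestine (adjusted p = 0.0708). Among 12 surface and homing genes 2 passed (median 0.26, 9.89% of all genes), but 1 of them, Cd200r3, lay below background in both small intestine groups. The other, the adhesion gene Cadm1, rose by 1.61 ± 0.34 (adjusted p = 0.0397). Mrgprb1 and Mrgprb2, receptors of connective tissue mast cells, were each well above background on at most 1 array.

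In the IgE receptor and signalling list 0 of 13 tested genes passed in limma in either segment, with 1 and 2 at an unadjusted p under 0.05 (medians -0.10 and 0.16). The smallest p was that of the kinase gene Syk in the large intestine (1.24 ± 0.25, adjusted p = 0.143). In the large intestine the only call of these 7 mast cell lists was Gzmb. Over the tested genes of the lists, 9.89% and 0.308% are the shares of all genes called in the small and the large intestine.

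**Figure D5:**
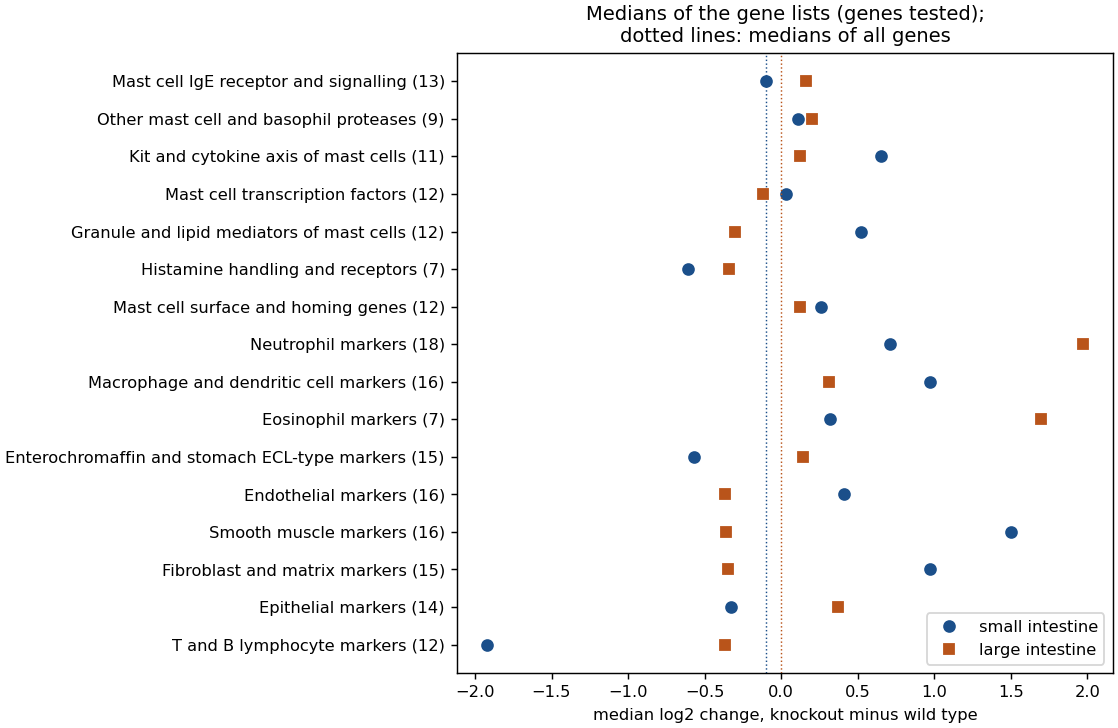
Median log2 change, knockout minus wild type, of each gene list, in the small (circles) and large (squares) intestine, with the number of tested genes in brackets; dotted lines are the medians of all genes, -0.10 and -0.00. The smooth muscle list lies at 1.5 and the T and B cell list at -1.92 in the small intestine, further from 0 than any of the 7 mast cell lists.

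Further lists of other cells complete the setting. Of all genes 9.89% were called in the small and 0.308% in the large intestine, and 31.4% and 13.3% had an unadjusted p under 0.05. Among 15 fibroblast and matrix genes 3 rose in the small intestine (median 0.97), Pdgfra by 1.02 ± 0.21, Dcn by 0.97 ± 0.20 and Lum by 1.15 ± 0.26, and 0 passed in the large intestine in limma (3 at an unadjusted p under 0.05, median -0.35). Of 14 epithelial genes 1 rose and 3 fell in the small intestine (median -0.33). Krt20, a keratin of differentiated cells, rose there by 2.28 ± 0.25 and in the large intestine by 2.04 ± 0.25, and the epithelial factor genes Elf3 (-1.26 ± 0.24) and Cdx1 (-1.31 ± 0.25) fell. Of 12 T and B cell genes 7 fell in the small intestine (median -1.92), among them the T cell receptor genes Cd3g (-3.02 ± 0.30) and Cd3d (-3.28 ± 0.44), with Cd8a lower by at least 6.72-fold. Of 7 eosinophil genes 0 passed in limma in either segment, with 1 and 3 at an unadjusted p under 0.05 (medians 0.32 and 1.70).

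Cpa3 had a pattern over the 8 arrays most like that of Csrp1 (r = 0.947), which encodes a LIM domain protein. Next were the angiogenesis inhibitor gene Vash1 (0.941), Klhl25 (0.938), Fxr2 (0.934) and Ror1 (0.928), a Wnt receptor. Among the members, Cma1 (0.881) and Tpsb2 (0.835) were the nearest to Cpa3, followed by Fcer1a (0.563) and Hdc (0.522), with Gata2 at 0.17, Mcpt4 at 0.041, Mcpt2 at -0.227 and Mcpt1 at -0.275. The arrays share groups and a slide, 27 genes exceeded r = 0.9 with Cpa3, and 88 did so with Hdc.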

How the data were processed

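Total RNA of 8 samples was read on 1-colour Agilent arrays with probe positions on mm9, per the file headers. The authors deposited the intensity of each spot, read with Feature Extraction 10.7.3.1, corrected for background within an array and not scaled between arrays. The authors' deposited normalized table holds intensity on a linear scale with column medians of 158.06 to 160.06, which correlated with the own array's log2 signal at r of 0.9912 to 0.9946. It is scaled between arrays, its genes are not centred, and what was done about background is unknown. The tool R 3.3.0 appears per the submitters' processing notes.

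Here log2 processed signal minus each array's 75th percentile over 59305 non-control spots was used. Spots marked by the scanner as outliers were dropped, which removed 302 of 55681 probes, and a probe entered the tests if both arrays of any group showed it well above background. Names came from the accession (26056 probes), a symbol (3200), an older symbol (930) or the file (2684) through a RefSeq table of 49997 genes (GRCm38.p6, names only), and 22811 have none. The probe with the highest mean stood for a gene, which gave 20138 genes.

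Groups came from the sample titles and were compared in limma 3.58.1 (R 4.3.3) with 1 mean per group over all 8 arrays, and both segments together with genotype and segment as additive terms. Benjamini-Hochberg adjustment of p-values ran over all genes. The code was tested on simulated data. A bound (at least N-fold) sets the brighter group's mean against, per array of the dimmer group, whichever is higher, the gene's own signal or the dimmest value that counted as well above background.

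The 9 members, the gene lists and the rules were chosen with earlier results of these data known. The text names the members, Cldn7, up to 3 genes with the smallest p among those that passed in each list (or the smallest p), and the 5 genes most correlated with Cpa3 and with Hdc. Genes of the chymase cluster, Xist, Ddx3y, Alb, Amy2a5 and further list members were named after their values were seen.

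Alternatives were normexp background correction (offset 50), quantile normalization, the deposited table, no background filter, a filter over all 8 arrays, no use of outlier flags, averaged probes per gene, every probe as a feature, a trended and robust prior, replicate numbers as a block, the number within genotype (as if 1 animal) as a random block, the compared groups alone and each array left out. Leaving out the knockout arrays with high Xist was chosen after seeing the data. Python 3.11.15 with pandas 2.3.3 made the tables.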

Additional observations from a re-analysis of the deposited data

How the results depend on the processing

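Over 21 alternatives the changes of single members kept their direction and side of the threshold in 1052 instances, changed sign in 32, gained the threshold in 6 and lost it in 26, and the counts of called members stayed within 1.5 times in 227 and moved in 21. In the small intestine 2 members were called higher, but 0 without a background filter, with the groups alone or with the high-Xist knockout arrays left out, 1 with every probe as a feature and 0 to 3 with an array left out. With the replicate block 1 was called, Hdc (adjusted p = 0.0466), and Gata2 (0.95) had an adjusted p of 0.0546, and the block changed no other call. The numbers are not stated to pair the samples, and replicate differences of 2 groups correlated across genes at 0.007 to 0.261. Over both segments 1 was called with the animal as a random block (Hdc 2.32, adjusted p = 0.0222) and 0 to 1 with an array left out. In that block fit the estimated correlation within an assumed animal was -0.288. It called 778 of all genes against 131 in the main fit, so the block was not a stricter check. Between wild-type segments 0 were called with the groups alone or the high-Xist arrays left out, and 0 to 3 with an array left out. Tpsb2 over both segments, which had no clear sign (-0.00), was 0.04 after quantile normalization, 0.02 in the deposited table, 0.42 as the mean of its probes and -0.44 to 0.30 with an array left out. Fcer1a between wild-type segments was 0.01 in the deposited table, its large intestine change -0.25 and the Mcpt4 difference of effects -0.07 with the high-Xist arrays left out. With an array left out, signs also changed in the ranges of the large intestine change of Cpa3 (-0.44 to 0.08), Cma1 (-0.05 to 0.48) and Fcer1a (-0.25 to 0.74), of the difference of effects of Mcpt1 (-0.45 to 2.52) and Mcpt4 (-0.44 to 0.61), of the wild-type segments for Hdc (-0.61 to 0.18), Mcpt1 (-0.57 to 0.39), Mcpt2 (-0.66 to 0.41), Mcpt4 (-0.62 to 0.32) and Fcer1a (-0.60 to 0.40), and of the knockout segments for Mcpt1 (-0.54 to 2.43) and Mcpt4 (-0.58 to 0.46). None of these had passed. Over all genes the 1991 calls of the small intestine became 486 without a background filter, 1157 with the replicate block, 33 with the groups alone and 14 with the high-Xist arrays left out, and 70 to 3824 with an array left out. For the other comparisons the counts were 62 (0 to 122 over all alternatives) in the large intestine, 131 (1 to 778) over both segments, 28 (1 to 937) for the difference of effects, 3997 (899 to 5594) between wild-type and 3193 (1203 to 4330) between knockout segments, both maxima with every probe as a feature. The cause was not tested, other than that fewer arrays or more probes enter some fits.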
